A study of Mus musculus with 25 samples.

Results

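The proteasome genes were described in sciatic nerves of mice that carry additional human PMP22 copies and of their controls. This set was chosen with earlier results of these data known. Its members were taken by name: every protein-coding gene whose symbol begins with Psm, then a letter from a to g and a digit. Symbols were matched from the Ensembl identifiers of the count table. The rule found 51 genes among 56956 in the table, and 5 further symbols annotated as pseudogenes were left out. Of the 51 genes, 49 had a mean of at least 1 CPM (counts relative to the total of the library) over the 25 libraries, and all 49 passed the filter on low counts. The other 2 were Psma8, a testis subunit of the alpha ring with a mean of 0.27 CPM, and Psmb11, the thymus subunit of the beta ring with a mean of 0.402 CPM. The lowest members inside the limit were Psmg3 at 2.31 CPM and Psmg4 at 4.01 CPM.

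RNA-seq was carried out on whole sciatic nerves of 5 groups, with 1 library per group at each of 5 ages (3, 5, 7, 9 or 12 weeks). C3 mice have a C57BL/6J background and carry Tg(PMP22)C3Fbas/J, 5 additional copies of human PMP22 on a yeast artificial chromosome, and WT-C3 are their C57BL/6J controls. C22 mice have an FVB/NRJ background and carry Tg(PMP22)C22Clh, 10 additional copies, and WT-C22 are their FVB/NRJ controls. C3-PMP22 c-JunP0Cre mice (C3 c-JunP0Cre) carry the 5 additional copies and also lack c-Jun in Schwann cells, where the P0 promoter drives Cre; the strain background of this line is not given in the sources used here, so an effect of background cannot be told apart from that of the deletion. Both lines are models of Charcot-Marie-Tooth disease type 1A (CMT1A), a demyelinating neuropathy. The mice were untreated, and every library was made from a pool of nerves from 4 to 5 males and females, so that the ages of a group serve here as its replicates (n = 5) and the spread between single animals was not measured. Copy number and strain differ together between the models and cannot be told apart. The sources used here give no group with the c-Jun deletion alone.

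The proteasome is the large protease that degrades ubiquitin-tagged proteins in every cell. Its 20S core is a barrel of alpha rings (Psma genes), which gate the entrance, and beta rings (Psmb genes), of which Psmb5, Psmb6 and Psmb7 carry the cutting sites. The 19S cap recognises and unfolds substrates with a ring of ATPases (Psmc) and a set of non-ATPase subunits (Psmd). Interferon induces Psmb8, Psmb9 and Psmb10, which replace Psmb5, Psmb6 and Psmb7 in newly built immunoproteasomes, and also Psme1 and Psme2, which form the PA28 activator. Psme4 (PA200) is another activator, Psmf1 (PI31) was first described as an inhibitor of the 20S core, and Psmg1 to Psmg4 assist 20S assembly. Psmd5, Psmd9 and Psmd10 assist assembly of the 19S base. In Schwann cells a large share of newly made PMP22 misfolds and is degraded by the proteasome.

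RefSeq promoter sequences (build GRCm38.p6, from 250 bases before the start of the gene) were found for 42 of the 49 expressed members. They are shown for Psmf1, the member with the smallest adjusted p in both models, for Psmb8 and Psmb9, which differed with age, and for Psme1 of PA28. Each ends 30 bases into the gene, reads 5′ to 3′ along the gene's own strand, and has matches to the searched motifs in capitals.
Psmf1: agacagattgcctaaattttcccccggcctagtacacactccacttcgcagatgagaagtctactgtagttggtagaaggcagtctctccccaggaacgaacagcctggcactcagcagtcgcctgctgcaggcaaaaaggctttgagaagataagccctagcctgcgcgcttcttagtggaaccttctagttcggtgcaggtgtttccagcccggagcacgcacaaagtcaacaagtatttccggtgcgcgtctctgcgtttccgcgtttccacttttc
Psmb8: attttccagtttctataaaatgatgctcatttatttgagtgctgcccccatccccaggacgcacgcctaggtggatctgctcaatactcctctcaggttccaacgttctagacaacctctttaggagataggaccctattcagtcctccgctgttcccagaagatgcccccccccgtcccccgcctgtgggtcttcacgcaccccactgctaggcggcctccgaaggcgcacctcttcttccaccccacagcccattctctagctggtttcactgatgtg
Psmb9: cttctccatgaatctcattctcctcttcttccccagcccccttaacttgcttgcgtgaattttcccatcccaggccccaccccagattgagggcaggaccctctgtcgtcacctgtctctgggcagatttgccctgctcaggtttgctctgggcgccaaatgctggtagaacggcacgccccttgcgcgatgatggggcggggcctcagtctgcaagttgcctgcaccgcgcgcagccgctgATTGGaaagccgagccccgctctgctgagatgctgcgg
Psme1: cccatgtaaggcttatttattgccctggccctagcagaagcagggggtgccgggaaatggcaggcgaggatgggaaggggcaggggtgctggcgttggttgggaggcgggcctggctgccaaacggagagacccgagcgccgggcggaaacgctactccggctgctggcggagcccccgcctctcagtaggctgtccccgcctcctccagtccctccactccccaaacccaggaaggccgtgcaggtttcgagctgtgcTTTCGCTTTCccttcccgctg
These windows lie at chr2:151741281-151741560 (minus strand), chr17:34197945-34198224 (plus strand), chr17:34187301-34187580 (minus strand) and chr14:55578244-55578523 (plus strand). With both strands searched, the core of the interferon-stimulated response element (GAAA, any 2 bases, then GAAA) was present in 5 of 42 member windows, 11.9%, against 3.49% of all 27025 windows in the table. The 5 were Psmb3, Psmd4, Psmd9, Psme1 and Psmg4, and in Psme1 the match TTTCGCTTTC began at position 9 with the start counted as 0. The antioxidant response element core bound by Nfe2l1, TGACNNNGC, was in 6 windows (14.3% against 12.5%), and the CCAAT box in 14 (33.3% against 37.9%). The nuclear respiratory factor 1 motif, GCGCA followed directly by TGCGC, was in the windows of Psma2 and Psmg1, 4.76% against 0.977%. The capitals in Psmb9 mark a CCAAT box on the opposite strand at position -8. These letters were not found in the windows of Psmb8 and Psmf1. A match of letters is a description and not a binding site.

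Depth ranged from 2140142 counts on genes (C3 at 9 weeks) to 49072746, and the 49 members took 0.263% to 0.380% of the counts of a library. Pearson correlations of log2 CPM between libraries of a group were 0.933 to 0.994. Human PMP22 had 1 to 83 counts in control libraries. It had 10652 to 13894 CPM in C3, 8213 to 14862 CPM in C3 c-JunP0Cre and 10656 to 14266 CPM in C22. The ranges of C3 and C22 thus overlapped although their copy numbers differ. Levels below are CPM scaled by trimmed mean of M-values (TMM) factors over all 25 libraries (TMM-scaled CPM) and are listed in the order of age from 3 to 12 weeks. Jun, the targeted gene, ranged from 26.4 to 31.8 in C3 c-JunP0Cre and from 94.1 to 125 in C3 (log2 fold change -1.90, adjusted p = 7.29e-07 in edgeR). The summed level of 5 skeletal muscle markers varied from 2.32 to 7476 between libraries and that of 3 red cell markers from 38.4 to 1486, within groups as well as between them. None of these 8 markers was called in either model, with medians on the log2 scale of 0.87 (muscle) and -1.64 (red cells) in C3 against WT-C3 and of -1.47 and -0.24 in C22 against WT-C22, and their part in the results below was not tested. Of 5 tested markers of repair and immature Schwann cells, 5 rose in C3 against WT-C3, and 3 rose and 1 fell in C22 against WT-C22. All 4 proliferation markers rose in both models (medians 2.00 and 2.08), and 3 of 4 endothelial markers fell in C22 and none was called in C3. None of 3 adipocyte markers was called in either model, and of 4 fibroblast markers none was called in C3 and 1 fell in C22. These are bulk samples, in which fewer cells of a type and less RNA per cell cannot be told apart. Comparisons used edgeR's quasi-likelihood test on counts with Benjamini-Hochberg adjustment over 13993 genes, and a gene was called at an adjusted p under 0.05.

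Levels can be compared between genes only per length, here as mean CPM per kilobase of exon over the 25 libraries. Of the alpha ring genes Psma7 had 87.6 and Psma2 16.7, and of the constitutive beta ring genes Psmb4 had 82.5 and Psmb5 7.48. The ATPase Psmc3, at 122, was the highest of the 49, and the lid subunit Psmd7, at 85.0, the highest of the non-ATPases. Subunits of the same complex thus differed widely in their RNA level per length. For Psma7 and Psma2 much of this lay in the lengths of 0.944 and 3.502 kilobases, as their CPM were 82.7 and 58.6. Psmb4 and Psmb5 had 97.6 and 12.7 CPM, with lengths of 1.183 and 1.701 kilobases. Of the immunoproteasome genes Psmb10 had 20.1, Psmb8 13.7 and Psmb9 6.11. The PA28 genes Psme1 and Psme2 had 9.94 and 53.1, PA200 (Psme4) 9.6 and the inhibitor Psmf1 16.0. The chaperones of the 20S core ranged from 2.60 for Psmg3 to 12.0 for Psmg2. The length used is that of the Ensembl canonical transcript (GENCODE annotation), so a gene that mainly uses a shorter or longer transcript in nerve is misjudged.

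Compared to WT-C3, C3 nerves had lower levels of the 20S subunits Psma2, Psma3, Psma6 and Psmb7, of the chaperone Psmd10 and of the inhibitor Psmf1, while the activator Psme4 and the 19S subunit Psmd3 were higher. Of the 49 members, 2 were called higher and 6 lower, against 12.5% and 11.4% of all tested genes (23.9% in either direction), so that a smaller share of the members than of all genes was called. The median log2 fold change of the members was -0.11, against 0.00 over all genes, and 13 of the 49 values were positive. With library size as the only scaling the split turned to 3 higher and 2 lower, and the median was -0.04. In 7 of the 49 the libraries of the 2 groups did not overlap, against 17.5% of all tested genes, which is near the share of the members. The count of 8 fell to between 3 and 5 when C3 at 3, 5 or 7 weeks or WT-C3 at 7, 9 or 12 weeks was left out.

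Among the 7 alpha ring genes 3 fell, Psma2, Psma3 and Psma6, 6 of 7 values were negative and the median was -0.27. Among the 7 constitutive beta ring genes Psmb7, which has trypsin-like activity, fell (-0.32 on the log2 scale, adjusted p = 0.043 in edgeR), with a group median of -0.14. None of the 6 ATPases was called, and their median was 0.00. Of the 11 non-ATPases Psmd3 rose, and of the 3 chaperones of the 19S base Psmd10 (gankyrin) fell by 0.35 on the log2 scale (adjusted p = 0.0185 in edgeR). None of the 4 chaperones of the 20S core and none of the 3 immunoproteasome genes was called.

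Psmf1, at chr2:151557732-151586119 on the minus strand (GRCm39), is the member with the smallest adjusted p. Its level in WT-C3 was 77.1, 73.9, 72.6, 76.4 and 74. In C3 it was 52.8, 57.4, 60.5, 61.4 and 54.9. Every C3 library was below every WT-C3 library, with a log2 fold change of -0.39 (SE 0.06, adjusted p = 0.00126 in edgeR). The gene overlaps Tmem74b on the opposite strand, and the strand setting of the counting is not given in the sources used here. The same limit holds for other members with a gene on the opposite strand. Among them are Psmb10 (2716 bp shared with Gm16156), Psme1 (3062 bp with Emc9) and Psmb8 (2139 bp with Gm20496).

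Psma2 and Psma3 are alpha ring subunits. Psma2 was at 70.8, 60.7, 66.3, 69.8 and 72.3 in WT-C3. It was at 48.4, 56.9, 53.4, 48.8 and 57 in C3, and the groups did not overlap (log2 fold change -0.36, SE 0.08, adjusted p = 0.0074 in edgeR). Psma2 shares 44083 bp of its annotated span with AW209491 on the same strand. Psma3 was at 89.7, 85.1, 85, 86.5 and 102 in WT-C3. In C3 it was at 65.8, 73, 75.3, 79.2 and 76.1, again without overlap (log2 fold change -0.29, SE 0.07, adjusted p = 0.0174 in edgeR).

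Psmd3, a scaffold subunit of the 19S lid, moved the other way. Its level was 87.6, 88.8, 87.3, 89.6 and 78.9 in WT-C3. It was 101, 102, 103, 111 and 93.1 in C3, and every C3 library was above every control library (log2 fold change 0.23, SE 0.06, adjusted p = 0.0201 in edgeR). Psme4 was at 55.7, 59.1, 46.1, 45.8 and 47.4 in WT-C3. In C3 it was at 84.7, 67.5, 71.2, 51.6 and 63.5, higher than WT-C3 at all 5 ages although the ranges overlapped (log2 fold change 0.43, SE 0.12, adjusted p = 0.0277 in edgeR). The call of Psme4 was lost when C3 at 3, 5 or 7 weeks or WT-C3 at 7, 9 or 12 weeks was left out, and that of Psmd3 without C3 at 5 or 7 weeks.

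**Figure D1:**
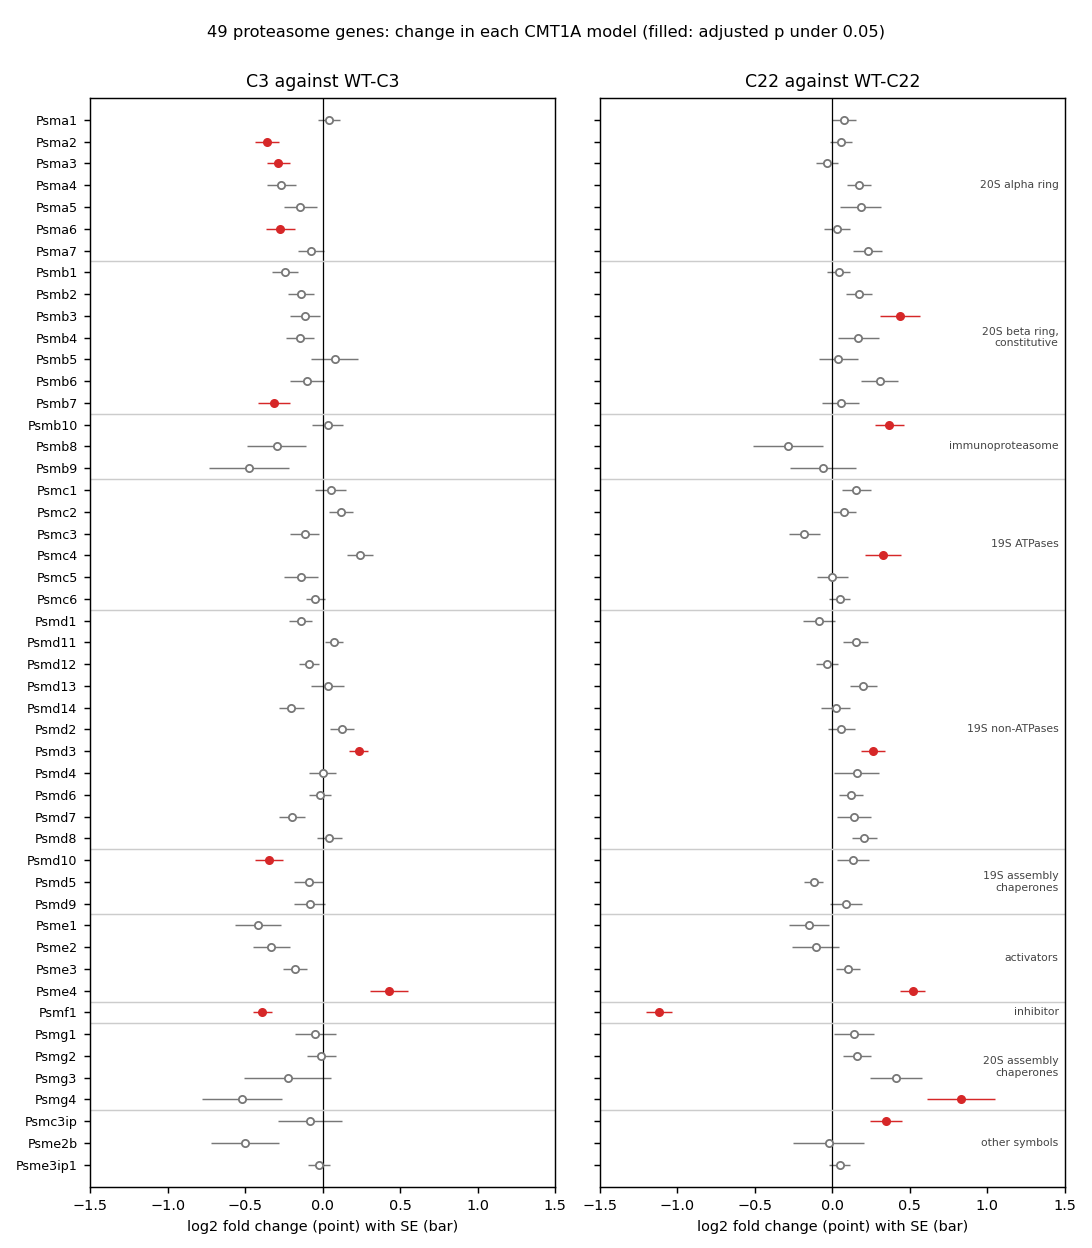
Log2 fold change (point) with its standard error (bar) of the 49 expressed proteasome genes in C3 against WT-C3 (left) and C22 against WT-C22 (right), grouped by role, with filled points for an adjusted p under 0.05. In C3 most points lie left of 0 (36 of 49), in C22 most lie right of it (38 of 49), and Psmf1 lies left in both.

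Compared to WT-C22, C22 nerves had 0.46 times the level of Psmf1, and Psmb3 and Psmb10 of the core, Psmc4 and Psmd3 of the cap, the activator Psme4 and the chaperone Psmg4 were higher. Of the 49 members 7 were called higher and 1 lower, against 21.9% and 20.5% of all tested genes (42.4% in either direction), again a smaller share of the members than of all genes. The median log2 fold change was 0.10, against 0.00 over all genes, and 38 of the 49 values were positive. With library size as the only scaling 29 members were called higher and 1 lower, but there the median of all genes was itself 0.17 and that of the members 0.27. The groups did not overlap in 3 of the 49, against 30.6% of all tested genes. Without the WT-C22 library at 12 weeks, 16 members were called higher and 1 lower.

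By role, 1 of 7 constitutive beta ring genes (Psmb3, a structural subunit), 1 of 3 immunoproteasome genes (Psmb10), 1 of 6 ATPases (Psmc4), 1 of 11 non-ATPases (Psmd3), 1 of 4 activators (Psme4) and 1 of 4 chaperones of the 20S core (Psmg4) rose. The seventh was Psmc3ip, which shares the letters of the rule but acts in meiotic recombination and is no proteasome subunit. Psmb3 had a log2 fold change of 0.44 (adjusted p = 0.0173 in edgeR) and was higher at 4 of 5 ages. Psmc4 had 0.33 (adjusted p = 0.0403 in edgeR), a call that was lost in 7 of the 10 fits with 1 library left out. None of the 7 alpha ring genes was called, with a median of 0.07.

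The level of Psmf1 in WT-C22 was 98, 92.8, 81.3, 85.8 and 73.9. In C22 it was 38, 43.8, 39.8, 36 and 41.9. The highest C22 library was below the lowest control library, with a log2 fold change of -1.12 (SE 0.09, adjusted p = 2.00e-06 in edgeR).

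Psme4 was at 52.8, 60.1, 50.1, 47.9 and 45.2 in WT-C22. It was at 79.3, 71.5, 75.4, 71.3 and 70.0 in C22, without overlap (log2 fold change 0.52, SE 0.08, adjusted p = 3.55e-04 in edgeR). Its C22 libraries lay close together and all were above the highest control. Psmb10 was at 22.8, 21.6, 22.1, 22.4 and 29.1 in WT-C22. It was at 27, 33.1, 28.9, 32.5 and 31.8 in C22, higher at all 5 ages, with the C22 libraries at 3 and 7 weeks below the oldest control (log2 fold change 0.37, SE 0.09, adjusted p = 0.0085 in edgeR). Psmg4, a chaperone of low level, was at 2.66, 2.88, 1.98, 2.55 and 3.06 in WT-C22. In C22 it was at 6.9, 5.41, 4.35, 3.36 and 3.36, and all C22 values were above the controls (log2 fold change 0.83, SE 0.22, adjusted p = 0.0102 in edgeR). Psmd3 rose with a log2 fold change of 0.26 (SE 0.08, adjusted p = 0.0154 in edgeR).

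**Figure D2:**
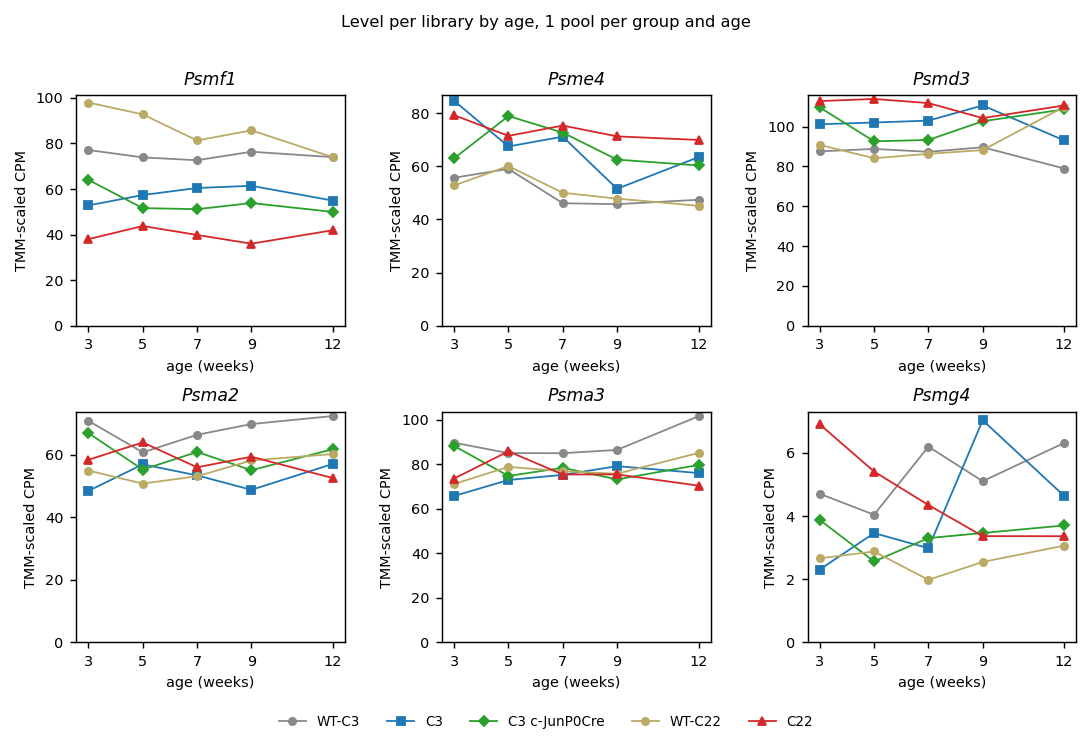
TMM-scaled CPM by age in weeks for Psmf1, Psme4, Psmd3, Psma2, Psma3 and Psmg4, with 1 pooled library per point and 1 line per group. Psmf1 is lowest in C22 (36.0 to 43.8) and highest in the controls (72.6 to 98.0), and Psme4 is higher in both models than in their controls at every age.

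Psmf1, Psme4 and Psmd3 were called in both models, each in the same direction. A further 5 members were called in C3 alone, 5 in C22 alone and 36 in neither, which is not a test of a difference. The sign of the fold change was negative in both models for 11 members, positive in both for 13, and negative in C3 but positive in C22 for 25; no member had the opposite pattern.

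The difference itself, the change in C22 minus the change in C3, was tested in a fit over the 4 groups. It was called for 6 members, 5 higher and 1 lower, against 4.75% and 7.31% of all genes (12.1% in either direction), and 43 of the 49 values were positive with a median of 0.17, against -0.03 over all genes. Psmf1 differed by -0.75 (SE 0.10, adjusted p = 4.46e-05 in edgeR), so its fall was larger in C22. For Psma2 the difference was 0.40 (SE 0.10, adjusted p = 0.0121 in edgeR). The level of Psma2 was 54.9, 50.8, 53.1, 58.1 and 60.2 in WT-C22 and 58.4, 63.9, 55.9, 59.3 and 52.5 in C22, with overlapping groups. Psma4, another alpha ring subunit, differed by 0.42 (SE 0.11, adjusted p = 0.0188 in edgeR). It was at 72.9, 67.9, 76.7, 74.7 and 72.6 in WT-C3 and 65.1, 64.4, 62.3, 46.4 and 62 in C3. In FVB/NRJ nerves it was at 60.5, 65.7, 59.5, 60.0 and 65.4 in WT-C22 and 77, 77.9, 69.6, 66.3 and 61.4 in C22. Neither model alone had a call for Psma4, and its C3 library at 9 weeks was the one with the fewest counts. For Psmg4 the difference was 1.33 (SE 0.35, adjusted p = 0.0142 in edgeR), with levels of 4.7, 4.04, 6.2, 5.1 and 6.31 in WT-C3 and 2.31, 3.46, 2.98, 7.03 and 4.64 in C3. Psmb3 and Psmd10 differed by 0.54 and 0.46 (adjusted p = 0.0385 and 0.0297 in edgeR), and their calls were lost in 10 and 5 of the 20 fits with 1 library left out. Without WT-C22 at 12 weeks the difference was called for 10 members.

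Between C3 c-JunP0Cre and C3 none of the 49 members was called by edgeR, against 0.55% of all genes; 2 had an unadjusted p under 0.05. DESeq2 and a fit with age as a block also called 0. The median log2 fold change was 0.10, against 0.00 over all genes, and 41 of the 49 values were positive under the TMM scaling, 40 with median-ratio size factors and 41 with library size only. All 7 alpha ring and all 7 constitutive beta ring values were positive, with medians of 0.12 and 0.18. Psmf1 was at 64, 51.6, 51.2, 53.8 and 49.9 in C3 c-JunP0Cre, which overlapped with C3 (log2 fold change -0.08, SE 0.08). The C3 c-JunP0Cre library at 3 weeks held the highest level of 39 of the 49 members within its group. The groups overlapped in all 49, where 2.27% of all tested genes had no overlap, so that the count of 0 is near the share of all genes.

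That members moved together from library to library was seen in other groups as well. The summed level of the 49 members was 3105 ± 215 (SD, n = 5) in WT-C3, 2943 ± 80.5 (SD, n = 5) in C3, 3143 ± 358 (SD, n = 5) in C3 c-JunP0Cre, 3067 ± 287 (SD, n = 5) in WT-C22 and 3239 ± 285 (SD, n = 5) in C22, so that the means of C3 and C22 differed from those of their controls by less than the SD of the control. A single library stood out in 3 groups. In C3 c-JunP0Cre the sum was 3717 at 3 weeks. In WT-C22 it was 3575 at 12 weeks, and in C22 it was 3717 at 5 weeks. Each of these libraries held the highest level of its group for 39 of the 49 members, as it did for 33.7%, 30.3% and 26.1% of all tested genes. In WT-C3 the library at 9 weeks held the highest level for 24 members (22.5% of all genes), and in C3 that at 9 weeks for 20 (34.6%). With 1 pool per age, an age and a pool cannot be told apart. The share of reads that aligned to more than 1 place was 3.75%, 3.79% and 3.81% in the first 3 of these libraries and 2.76% to 3.93% over all 25, and its part in the levels was not tested.

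By a spline test, age effects were called for immunoproteasome and PA28 genes and for no other member. An age effect was tested with a natural spline of 3 degrees of freedom within each group in a fit of all 25 libraries, with adjustment over 15298 genes, and a linear slope gave the direction. In C3 the spline called Psmb9 (1 of 49, against 2.27% of all genes), in C3 c-JunP0Cre Psmb8 and Psmb9 (2, against 3.38%), and in WT-C22 Psmb8, Psmb9 and Psme2 (3, against 2.86%). In WT-C3 and C22 it called none (against 0.693% and 0.752%), where 9 and 4 members had an unadjusted p under 0.05 in edgeR and DESeq2 called 0. The share of members called was near that of all genes in C3 and C3 c-JunP0Cre. With any 1 library of the group left out, the calls in C3 c-JunP0Cre and WT-C22 were lost, and that of Psmb9 in C3 was lost without the library at 3 or at 12 weeks.

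Psmb8 and Psmb9 lie beside each other in the major histocompatibility complex (chr17:34416690-34420428 and chr17:34400960-34406738, GRCm39), and Psmb9 overlaps Tap1 by 743 bp on the opposite strand. Psmb9 was at 9.48, 9.12, 7.92, 7.57 and 9.07 in WT-C3, with a slope of -0.01. In C3 it was at 3.24, 4.98, 5.86, 7.97 and 10.0, 3.09 times as high at 12 as at 3 weeks. It was higher at each age than at the one before, with a slope of 0.17 log2 units per week (SE 0.0269, spline adjusted p = 0.0168 in edgeR). In C3 at 9 weeks, the shallowest library of all, Psmb9 had only 17 counts. In C3 c-JunP0Cre it was at 5.21, 5.92, 7.45, 8.44 and 12.5 (slope 0.14, spline adjusted p = 0.0219 in edgeR). In WT-C22 it was at 7.18, 7.68, 7.97, 8.78 and 14.9 (slope 0.11, spline adjusted p = 0.0388 in edgeR), where the library at 12 weeks was set well above the rest; DESeq2's likelihood ratio test did not call it (adjusted p = 0.0703). In C22 it was at 7.04, 7.75, 9.2, 11.9 and 9.32, highest at 9 weeks (slope 0.07, spline adjusted p = 0.198 in edgeR). At 3 weeks Psmb9 was lowest in C3, and at 12 weeks the C3 value was above the highest of WT-C3.

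Psmb8 was at 22.7, 19.1, 23.6, 29.7 and 26.5 in WT-C3. In C3 it was at 11.9, 20.1, 18.8, 24.8 and 25.6, 2.15 times as high at 12 as at 3 weeks (slope 0.11, spline adjusted p = 0.0897 and linear slope adjusted p = 0.0361 in edgeR). The spline thus missed the threshold in C3, and the slope passed it. In C3 c-JunP0Cre Psmb8 was at 17.4, 16.6, 20.5, 24.4 and 35 (slope 0.12, spline adjusted p = 0.0407 in edgeR). In WT-C22 it was at 17.8, 22.5, 24.5, 27.7 and 42.2 (slope 0.13, spline adjusted p = 0.0394 in edgeR). In C22 it was at 15.6, 21.7, 20.7, 31.2 and 22.5, again with its highest value at 9 weeks (slope 0.07, spline adjusted p = 0.189 in edgeR).

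Psmb10 lies on another chromosome (chr8:106662362-106665077, GRCm39), and no age effect was called for it. It was at 24.2, 25.2, 27.3, 26.6 and 23.7 in WT-C3 and at 20.4, 29.5, 27.4, 28.1 and 25.3 in C3. In C3 c-JunP0Cre it was at 26.5, 22.3, 24.9, 25.5 and 28.9. Its slope was at most 0.04 log2 units per week, in WT-C22, and below that of Psmb8 in all 5 groups. A difference in the time course between a model and its control was called for none of the 49 members in C3 compared to WT-C3, in C22 compared to WT-C22 or in C3 c-JunP0Cre compared to C3 (against 0.0261%, 0.0523% and 0.0588% of all genes), and 3, 16 and 5 members had an unadjusted p under 0.05 in edgeR. The linear slope called none of them either, against 0.00654% positive and 0.0131% negative, 0.412% and 0.0523%, and 0% and 0.00654% of all genes. For Psmb9 in C3 against WT-C3 the slope differed by 0.19 (SE 0.038, spline adjusted p = 0.54 in edgeR), so the rise in C3 was not shown to differ from WT-C3.

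**Figure D3:**
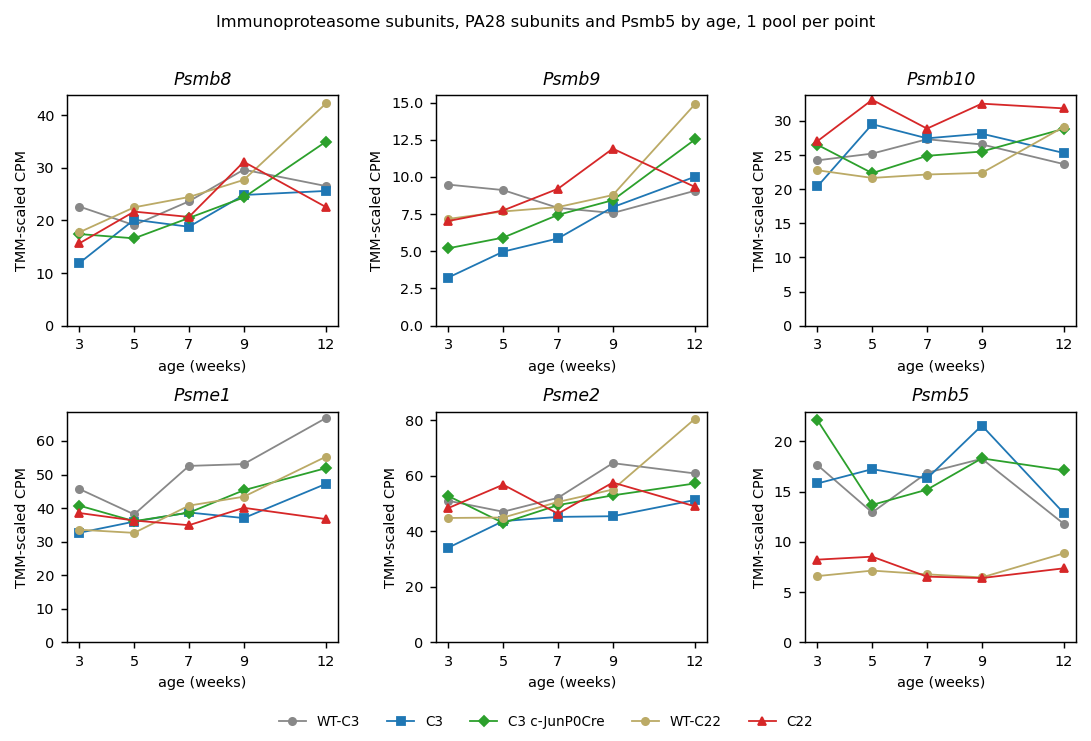
TMM-scaled CPM by age in weeks for Psmb8, Psmb9, Psmb10, Psme1, Psme2 and Psmb5, with 1 pooled library per point and 1 line per group. Psmb9 climbs from 3.24 to 10.0 in C3 and stays between 7.57 and 9.48 in WT-C3, and Psmb5 is lower in both FVB/NRJ groups (6.40 to 8.87) than in the other 3 (11.8 to 22.1).

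The PA28 genes Psme1 and Psme2, neighbours on chromosome 14, had positive slopes in all 5 groups. Psme1 was at 45.7, 38.1, 52.6, 53.1 and 66.8 in WT-C3, where its linear slope was called (0.07, adjusted p = 0.0282 in edgeR) and its spline was not. In C3 it was at 32.7, 36, 38.7, 37 and 47.2. The C3 values were below WT-C3 at every age, but the difference between the groups missed the threshold (log2 fold change -0.42, SE 0.15, adjusted p = 0.0568 in edgeR). With age as a block it passed (adjusted p = 0.00912 in edgeR), as it did with median-ratio size factors, with all 25 libraries in 1 fit and in DESeq2. In C3 c-JunP0Cre Psme1 was at 40.7, 36.1, 38.6, 45.3 and 51.9. In WT-C22 it was at 33.6, 32.6, 40.7, 43.4 and 55.3 (slope 0.09, slope adjusted p = 0.0054 in edgeR). C22 nerves had 38.5, 36.3, 34.9, 40.1 and 36.7, nearly level over age. Psme2 was at 51, 47.1, 52.1, 64.6 and 60.9 in WT-C3 and 34.2, 43.7, 45.2, 45.5 and 51.3 in C3. In C3 c-JunP0Cre it was at 52.7, 43, 49.5, 53 and 57.3. Its spline was called in WT-C22, where it was at 44.8, 45, 50.6, 55.1 and 80.6 (slope 0.09, spline adjusted p = 0.0466 in edgeR). Levels in C22 were 48.4, 56.8, 46.4, 57.6 and 49, with the highest values at 5 and 9 weeks.

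Each immunoproteasome subunit takes the place of 1 constitutive subunit, so their log2 ratio of CPM per kilobase of exon was computed in each library, as a description. For Psmb8 to Psmb5 it was 0.66 ± 0.31 (SD, n = 5) in WT-C3, 0.24 ± 0.50 (SD, n = 5) in C3 and 0.36 ± 0.49 (SD, n = 5) in C3 c-JunP0Cre. In FVB/NRJ nerves it was 1.86 ± 0.33 (SD, n = 5) in WT-C22 and 1.56 ± 0.50 (SD, n = 5) in C22, with all but 1 of these 10 libraries above the highest of the other 15. For Psmb9 to Psmb6 it ranged from -4.42 to -2.98 in C3 and from -3.27 to -2.65 in WT-C22, so that at most 0.16 times as much Psmb9 as Psmb6 RNA was counted per kilobase in any library. For Psmb10 to Psmb7 it was -1.79 ± 0.16 (SD, n = 5) in WT-C3 and -1.45 ± 0.17 (SD, n = 5) in C3. It was -1.64 ± 0.10 (SD, n = 5) in WT-C22 and -1.32 ± 0.20 (SD, n = 5) in C22. The mean of both models was above that of their controls for this pair and below it for the other pairs.

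**Figure D4:**
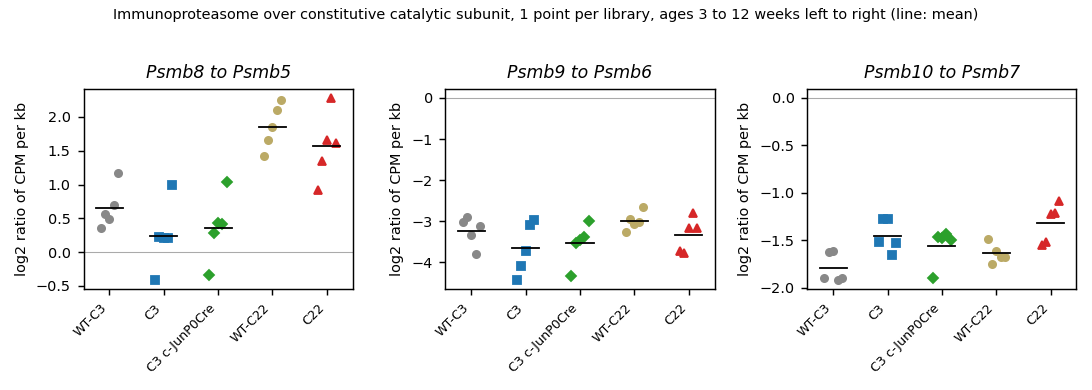
Log2 ratio of CPM per kilobase of exon of each immunoproteasome subunit to the constitutive subunit it replaces, with 1 point per library from 3 to 12 weeks left to right within a group and a line at the mean. Psmb8 to Psmb5 is highest in WT-C22 and C22, and the lowest point of each group in that panel is the youngest library.

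The constitutive counterparts showed no called age effect. Psmb6 was at 58.4, 52.2, 61.4, 79.9 and 60.0 in WT-C3 and 53.2, 64.7, 59.7, 51.6 and 60.5 in C3. It was at 53, 45.1, 50.8, 54.8 and 71.5 in WT-C22 and 70.8, 81.1, 62.9, 63 and 64.4 in C22, and at 79.6, 52.4, 62.9, 67.2 and 76.8 in C3 c-JunP0Cre. The libraries noted above for their high sums are the high ones here too. Psmb7 was at 79.6, 68.4, 73.8, 88.5 and 78 in WT-C3 and 51.6, 63.3, 58.8, 78.3 and 64.2 in C3. It was at 56.5, 64.1, 59.8, 63 and 82.2 in WT-C22 and 70.1, 83.4, 59.7, 66.8 and 59.5 in C22, and at 87.3, 54.4, 61.3, 61 and 71.8 in C3 c-JunP0Cre.

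The number of members with a positive slope varied between groups, which was not tested. The slope was positive for 32 of 49 members in WT-C3, 26 in C3, 43 in WT-C22 and 7 in C22, while about as many genes of the whole table had a negative slope as a positive one (49.1%, 49.2%, 50.9% and 47.9% negative). In C3 c-JunP0Cre 16 slopes were positive with TMM factors, but 34 with library size only and 42 without the library at 3 weeks. The slope in C22 was below that in WT-C22 for 46 of 49 members, with a median difference of -0.05 log2 units per week, and the number was 46 under both other scalings as well. None of these 46 differences was called. Without the WT-C22 library at 12 weeks the positive slopes in WT-C22 were 27 of 49, and the negative differences 41 of 49. Linear slopes were called for Psme1 in WT-C3 (1.07% of all genes were called with a positive slope), Psmb8 and Psmb9 in C3 (3.52% positive and 2.44% negative), Psmb8 and Psmb9 in C3 c-JunP0Cre (3.28%) and Psmb8, Psmb9, Psmd4, Psme1 and Psme2 in WT-C22 (3.88%). In C22 no slope was called (0.477% positive and 0.307% negative over all genes). The only called negative slope was that of Psmd6, a subunit of the 19S lid, in C3 c-JunP0Cre (-0.05, adjusted p = 0.0471 in edgeR, 2.69% negative over all genes). It was at 59.3, 49.4, 49.7, 43.3 and 42.1.

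**Figure D5:**
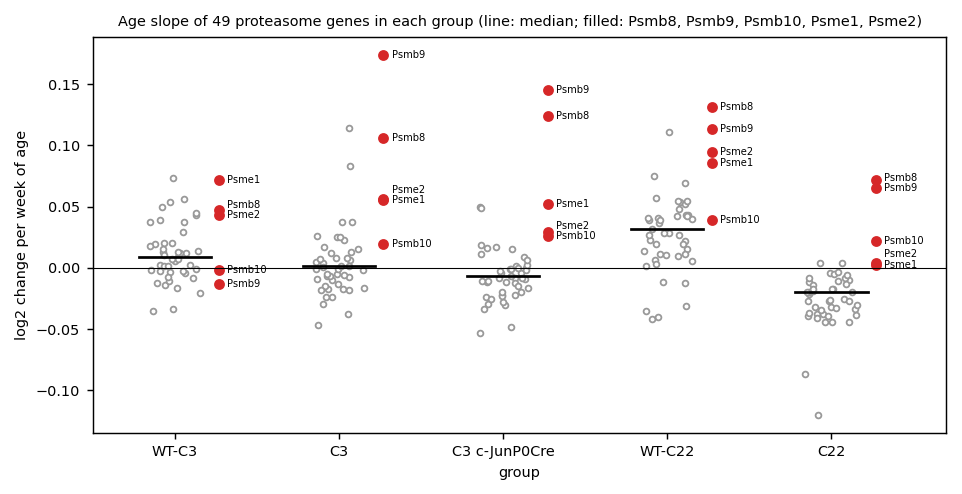
Slope of log2 expression per week of age of the 49 expressed proteasome genes in each group, with open points for single genes, a line at the median, and filled labelled points for Psmb8, Psmb9, Psmb10, Psme1 and Psme2. Psmb8 and Psmb9 are above the median of their group in all groups except for Psmb9 in WT-C3, and in C22 all but 7 of the 49 slopes lie below 0.

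Between the control strains, WT-C22 against WT-C3, 1 member was called higher and 5 lower, against 9.99% and 11.7% of all genes (21.7% in either direction), with a median of -0.03. The groups did not overlap in 5 of the 49, against 17% of all tested genes. The largest differences were in Psmc3ip, Psmb5 and Psmg4. Psmb5, which has the chymotrypsin-like activity of the core, was at 17.6, 12.9, 16.9, 18.3 and 11.8 in WT-C3. In WT-C22 it was at 6.6, 7.14, 6.78, 6.47 and 8.87, without overlap (log2 fold change -1.10, SE 0.15, adjusted p = 2.20e-04 in edgeR). The models followed their strains, with 15.8, 17.2, 16.3, 21.6 and 12.8 in C3 and 8.23, 8.53, 6.54, 6.4 and 7.37 in C22, and Psmb5 was called in neither model (log2 fold change 0.08 and 0.04). In C3 c-JunP0Cre it was at 22.1, 13.7, 15.2, 18.3 and 17.1, within or above the range of WT-C3 and C3.

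Psmb11 lies next to Psmb5 (chr14:54858890-54867013 against chr14:54850776-54855481, GRCm39) and showed the opposite pattern at a level near the limit of detection. It had 8 to 42 counts in each library of WT-C22 and C22, at 0.772 to 1.25 and 0.65 to 1.47 TMM-scaled CPM. In the libraries of the other 3 groups it had 0 to 2 counts, under the limit of 3 counts that a count of 0 allows. Psmc3ip was at 2.35, 2.7, 3.1, 2.95 and 3.86 in WT-C3. In WT-C22 it was at 12, 10.6, 11.4, 11.4 and 14.1 (log2 fold change 1.99, SE 0.15, adjusted p = 1.73e-06 in edgeR). All 10 FVB/NRJ libraries were above all 15 others, and the gene overlaps Mlx on the opposite strand. Psmg4, described above, had 0.499 times the level of WT-C3 in WT-C22 (adjusted p = 0.00153 in edgeR). Psma2 was lower in WT-C22 as well (-0.29, adjusted p = 0.0132 in edgeR), as were Psma4 and Psmb2 (-0.23 and -0.30, adjusted p = 0.0201 and 0.0212 in edgeR), whose calls were lost without WT-C22 at 7 or 9 weeks (Psma4) and at 5 or 7 weeks (Psmb2). The count of called members between the strains was 10 without WT-C22 at 12 weeks. FVB/NRJ reads were aligned to the reference of another strain, and how much alignment bears on these values was not tested.

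Genes that act with the proteasome were taken from a list of 29, of which 28 were found in the table and 27 tested. They include cap proteins with other names, factors that control proteasome genes, substrate shuttles and ubiquitin genes. In C3 against WT-C3 1 rose and 7 fell, against 12.5% and 11.4% of all genes. The ubiquitin receptor Adrm1 rose (0.31, adjusted p = 0.0121 in edgeR), while the cap subunit Sem1 (-1.13) and the cap deubiquitinases Uchl5 (-0.51) and Usp14 (-0.39) fell. The others that fell were the cap-associated Txnl1, the import factor Akirin2, the shuttle Rad23b and the ubiquitin gene Rps27a, from -0.52 to -0.24. In C22 against WT-C22 3 rose and 9 fell, against 21.9% and 20.5% of all genes, so that the share called in either direction was near the 42.4% of all genes and is no result about the list. Adrm1 rose again (0.40, adjusted p = 0.00795 in edgeR), as did Ddi2 (0.29), the protease that activates Nfe2l1, and Zfand5 (0.58), a proteasome activator. Nfe2l1 itself, the transcription factor that raises proteasome genes when the proteasome is impaired, fell (-0.50, adjusted p = 0.0057 in edgeR), and so did Ngly1 (-0.35), which is needed for its activation. Uchl5 and Usp14 fell in C22 too (-0.46 and -0.40), and Txnl1, Nfe2l2, Ubqln2 and Zfand2a were among the others that fell. The difference between the changes was called for 4 (12.1% of all genes), Sem1 (1.62), Rad23b (0.25) and Zfand5 (0.47) higher and Zfand2a (-0.35) lower. In C3 c-JunP0Cre against C3 none of the 27 was called by edgeR (0.55% of all genes) and 1 had an unadjusted p under 0.05. Between the strains 5 were lower in WT-C22 (11.7% of all genes), Sem1 (-1.41), Akirin2, Rad23b, Ubb and Rps27a. The median over the 27 genes was -0.10 in C3 and -0.04 in C22. With library size as the only scaling the calls of Nfe2l1, Nfe2l2, Ngly1, Uchl5, Txnl1 and Ubqln2 in C22 and of Uchl5, Txnl1 and Rps27a in C3 were lost, without a change of sign, as was that of Zfand2a for the difference. The calls of Nfe2l2 in C22 and of Rad23b between the strains each held in 2 of the 10 fits with 1 library left out.

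Interferon and antigen-processing genes were examined beside the immunoproteasome, as a list of 12. B2m, the light chain of class I molecules, fell in both models (-0.65 in C3 and -0.48 in C22, adjusted p = 0.0101 and 0.0248 in edgeR). The receptor chain Ifngr2 fell in C22 (-0.33). In C22 the calls of B2m and Ifngr2 were lost with library size as the only scaling, and that of B2m held in 4 of the 10 fits with 1 library left out. With age the summed level of the 12 genes went from 620.0 at 3 to 976 at 12 weeks in C3, from 775 to 1033 in C3 c-JunP0Cre and from 690.1 to 1034 in WT-C22. In WT-C3 it went from 902 to 1064. In C22 it was 622 at 3 weeks, 873 at 9 and 731 at 12. The spline called the peptide transporter gene Tap2 and the class I activator Nlrc5 in C3 and in C3 c-JunP0Cre, Tap2 and Tapbp in WT-C22, Nlrc5 in C22 and none in WT-C3. Over all genes it called 2.27% in C3, 3.38% in C3 c-JunP0Cre, 2.86% in WT-C22, 0.752% in C22 and 0.693% in WT-C3. Whether these calls hold with 1 library left out was not tested. The groups in which Psmb9 was called with age were also those in which Tap2, a neighbour in the same locus, was called.

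Leukocyte markers were measured because immune cells carry much immunoproteasome. The summed level of 10 macrophage and leukocyte markers was 289 to 500.0 in WT-C3, 322 to 415 in C3, 272 to 477 in C3 c-JunP0Cre, 302 to 471 in WT-C22 and 294 to 453 in C22. No age effect was called for any of the 10 in any group by the spline in edgeR. In C3 c-JunP0Cre and WT-C22 (at 12 weeks) and in C22 (at 9 weeks) the library with the highest sum was also that with the highest Psmb8 and Psmb9, which was not so in WT-C3 and C3. The sum of 5 T cell markers was at most 3.75 in every library except C22 at 9 weeks, where it was 15.4. Markers of other cells did have spline calls with age. Of 3 adipocyte markers 2 were called in C3, 2 in C3 c-JunP0Cre, 1 in WT-C22 and 0 in WT-C3 and C22. From 3 to 12 weeks their sum went from 121 to 769 in C3 and from 226 to 1190 in C3 c-JunP0Cre. It went from 530 to 1749 in WT-C22, 378 to 592 in WT-C3 and 491 to 988 in C22. Of 8 myelinating Schwann cell markers 4 were called in WT-C22 and 1 in C3 c-JunP0Cre. Of 4 endothelial markers 1 was called in C3 and 1 in C22. Of 4 fibroblast markers 1 was called in each group except WT-C22. The part of immune cells, adipocytes or other cells in the levels of the immunoproteasome genes was not tested. Of the 10 leukocyte markers Cx3cr1 was called higher in both models (1.05 and 1.42) and Aif1 in C22 (0.44, a call that held in 3 of the 10 fits with 1 library left out). None was called lower, and 23.9% and 42.4% of all genes were called in C3 and C22. Of the 10 values 5 were positive and 5 negative in C3 (median -0.03), and 7 and 3 in C22 (median 0.05).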

How the data were processed

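Poly(A) RNA of 25 pooled sciatic nerve samples was sequenced with the NEBNext Ultra II Directional kit. Per the submitters' processing notes and methods, the authors trimmed reads with cutadapt 2.10, aligned them with STAR 2.7.5a to GRCm39 with the human PMP22 locus (GRCh38) added, removed duplicates by molecular identifier with UMI-tools 1.1.1 and counted fragments per Ensembl gene with HTSeq 0.12.4. The deposited values are raw counts. The 5 summary lines of the counter, among them fragments on no gene (8.12% to 12.1% per library), were left out.

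Groups and ages came from the labels. A gene was kept where its log2 CPM exceeded 1 in 7 or more libraries (25% of them). Group comparisons used edgeR 4.0.16 (R 4.3.3) quasi-likelihood tests with TMM factors on the groups compared and Benjamini-Hochberg adjustment, and age effects used natural splines of 3 degrees of freedom, with the genes that filterByExpr keeps. DESeq2 1.42.0 served as an alternative. The tests were checked on simulated counts, drawn independently with the same dispersion for every gene. The simulated group comparisons held no change with age, so the check does not cover age differences among the replicates of a group.

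The proteasome genes and all gene lists were chosen with earlier results of these data known. Values in every library are given for the immunoproteasome genes, their constitutive counterparts, Psme1, Psme2, and the up to 3 called members with the smallest adjusted p in each direction of a comparison. Psmd6 was added after its values were seen. Same-age libraries of C3 c-JunP0Cre and C3 deviated together at all 5 ages (correlations 0.123 to 0.615), and a block on age left the count of called members at 0. Those of WT-C22 and WT-C3 also deviated together at all 5 ages (correlations 0.0458 to 0.653). Intervals between single mice could not be had from 1 pool per age. Results for some genes of the context lists are not reported here.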

Additional observations from a re-analysis of the deposited data

Results flagged for a closer look

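Among 80 sets of 5 libraries (16 named members in 5 groups), 10 had an outlying library. Its gap to the nearest of the others exceeded 0.71 of the whole range (Dixon's critical value). For independent sets chance gives about 1 such set in 20. The members share their libraries and some were named because they were called, so the 10 cannot be set against that rate. The WT-C22 library at 12 weeks was high for 5 of the 10. It had 14.9 TMM-scaled CPM for Psmb9 (others 7.18 to 8.78), 29.1 for Psmb10 (others 21.6 to 22.8), 8.87 for Psmb5 (others 6.47 to 7.14), 80.6 for Psme2 (others 44.8 to 55.1) and 109.9 for Psmd3 (others 84.1 to 90.8). The WT-C3 library at 12 weeks was low for Psmd3 (78.9, others 87.3 to 89.6) and high for Psma3 (101.6, others 85.0 to 89.7). The C3 c-JunP0Cre library at 3 weeks was high for Psmf1 (64.0, others 49.9 to 53.8) and Psma4 (75.8, others 61.7 to 65.2). The C3 library at 9 weeks, the shallowest of all, was low for Psma4 (46.4, others 62.0 to 65.1).

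The change in C22 differed from that in C3 by the test of the difference for 6 members, with log2 differences of 0.40 for Psma2, 0.42 for Psma4, 0.54 for Psmb3, 0.46 for Psmd10, -0.75 for Psmf1 and 1.33 for Psmg4 (adjusted p from 4.46e-05 to 0.0385 in edgeR).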

How the results depend on the processing

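With library size as the only scaling, the called members were 5 in C3 against WT-C3 (8 with TMM factors), 30 in C22 against WT-C22 (8) and 11 for the difference (6). With no filter on low counts they were 3, 7 and 3, and 3 between the strains (6). Under the other alternatives (median-ratio size factors, DESeq2, filterByExpr, all 25 libraries in 1 fit and the replicate block on age) they stayed within 1.5 times of the TMM counts; DESeq2 called 12 members in C3. Same-age libraries deviated together at all 5 ages in C3 c-JunP0Cre against C3 and between the strains (correlations 0.0458 to 0.653 in the latter). In C3 and C22 against their controls they did not do so at every age. With the replicate block the counts were 10 in C3, 7 in C22, 6 for the difference, 0 in C3 c-JunP0Cre against C3 and 9 between the strains. The age effect with a linear slope was called for 1 member in WT-C3, 2 in C3 and 5 in WT-C22, and with DESeq2's likelihood ratio test for 2 in C3 and 4 in C3 c-JunP0Cre. No called log2 fold change turned its sign under these alternatives. With 1 library left out the counts ranged from 3 to 12 in C3, from 7 to 17 in C22, from 4 to 10 for the difference, from 0 to 0 in C3 c-JunP0Cre against C3 and from 4 to 10 between the strains. The count in C3 was 5 without C3 at 3 weeks or WT-C3 at 7, 9 or 12 weeks, 4 without C3 at 5 weeks and 3 without C3 at 7 weeks. Without WT-C22 at 12 weeks it was 17 in C22, 10 for the difference and 10 between the strains. With 1 library left out the age effect was called for 0 to 2 members in C3 (0 without the library at 3 or 12 weeks) and for 0 members in each of the other groups, where 4 ages remain for a spline of 3 degrees of freedom. The calls of Psmf1, Psma2, Psma3, Psmb10, Psmg4 and Psmb5 held with any 1 library left out, while Psma6 and Psmb7 in C3 were each lost in 8 of 10 such fits. Other causes of these shifts were not tested. The shallowest library had 2140142 counts, which limits what can be seen in genes of low level such as Psmg4.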
